A study of Mus musculus with 6 samples.

Results

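Fatty acid uptake and oxidation was followed through 10 genes: Cd36 and Fabp5 for uptake, Cpt1a, Slc25a20 and Cpt2 for the carnitine shuttle, and Acadvl, Acadl, Acadm, Hadha and Hadhb for beta-oxidation. They were picked by name, with earlier results of these data known, and each matched 1 row of a table of 55450 genes. The libraries came from regulatory T (Treg) cells, CD4 T cells that carry the transcription factor Foxp3 and hold immune responses in check. The cells were sorted out of MC38 tumours, a transplantable mouse colon carcinoma, in C57BL/6 mice. There were 3 libraries from Treg cells deficient in Tim-3, an inhibitory receptor encoded by Havcr2, and 3 from Tim-3 sufficient Treg cells, and the comparison asks what loss of the receptor does to gene expression in tumour Treg cells. The column names call the groups KO and WT. The targeted allele, any Cre driver and the age of the mice are not given in the sources used here, and the labels leave unsaid whether the libraries in a group stand for different mice. The p-values therefore speak only of the variation among the libraries at hand, part of which may be technical.

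Long-chain fatty acids enter cells partly through CD36, a scavenger receptor and fatty acid translocase, and are carried in the cytosol by fatty acid binding proteins such as FABP5. CPT1A on the outer mitochondrial membrane joins them to carnitine, the carrier SLC25A20 moves the acylcarnitine across the inner membrane, and CPT2 turns it back into acyl-CoA. Each round of beta-oxidation then starts with an acyl-CoA dehydrogenase that fits the chain length and, for long chains, goes on with the trifunctional protein made of HADHA and HADHB subunits. Treg cells have been described as users of fatty acid oxidation, and CD36 as a receptor that Treg cells raise inside tumours.

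Libraries are named by group and by the marks in their column names: deficient C1, deficient D and deficient dated, and sufficient A1, sufficient B1 and sufficient dated. The 2 dated libraries, 1 per group, carry a calendar date in their names, which was treated as a possible batch. The deposited values were log2(TPM + 1). TPM is an abundance of transcripts corrected for gene length and scaled to a total of 1000000, so read depth is unknown. The number of genes at 1 TPM or more was 11470 to 12681 per library. All 7 Treg and T cell defining markers were well above 1 TPM in each library, with summed levels of 2853 to 3584 TPM in deficient and 3290 to 4588 TPM in sufficient libraries. The sum of 15 macrophage and monocyte markers ranged more widely, from 30.3 to 1857 TPM in deficient and from 35.5 to 1114 TPM in sufficient libraries. It was highest in deficient C1 and sufficient B1. B cell markers summed to 186 to 243 TPM in deficient and 51.2 to 173 TPM in sufficient libraries, without overlap and mostly as Igkc, while Ms4a1 was at 0 in all 6 libraries. Their part in the values of the 10 genes was not tested. The summed markers of dendritic, CD8 and NK, tumour and epithelial, endothelial, fibroblast and adipocyte, and erythroid and platelet cells stayed at or under 45.7 TPM in deficient and 34.6 TPM in sufficient libraries, and Krt8 and Krt19 were at 0 in all 6. The deficient dated library held 0.01 TPM of 4 Y-linked genes together, against 139.5 to 185.6 TPM in the other 5 libraries. The dated pair thus differed in Y-linked RNA, a mark of male cells, as well as in group. Within that pair these differences cannot be told apart. On the log2(TPM + 1) scale Havcr2 averaged 3.45 ± 0.87 in deficient and 5.28 ± 0.68 in sufficient libraries (SD, n = 3 each), without overlap. Its adjusted p in limma was 0.211, short of the threshold, and 0.0148 with the date mark as a block.

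None of the 9 members that could be tested passed the threshold between deficient and sufficient Treg cells, set at p under 0.05 in two-sided limma tests with Benjamini-Hochberg adjustment over 12155 genes. The share of all tested genes called was 0.206% (16 higher and 9 lower), so a count of 0 among 9 lies near the background. At an unadjusted p under 0.05 the count was also 0 of 9, where 11.7% of all tested genes passed. Fits without the mean-variance trend or with robust variance estimates called 0 members as well. In 7 of the 9 members the difference in log2(TPM + 1), deficient minus sufficient, was positive, as it was in 60.1% of all tested genes. The median difference was 0.32 over the 9 tested members, 0.36 with Cd36 included, and 0.09 over all tested genes. Centring each library on its median moved the median of all genes by -0.13. The median of the 9 members was then 0.19, with 7 of 9 still positive, and over all genes 11 were called higher and 19 lower. Quantile normalization called 16 higher and 22 lower.

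**Figure D1:**
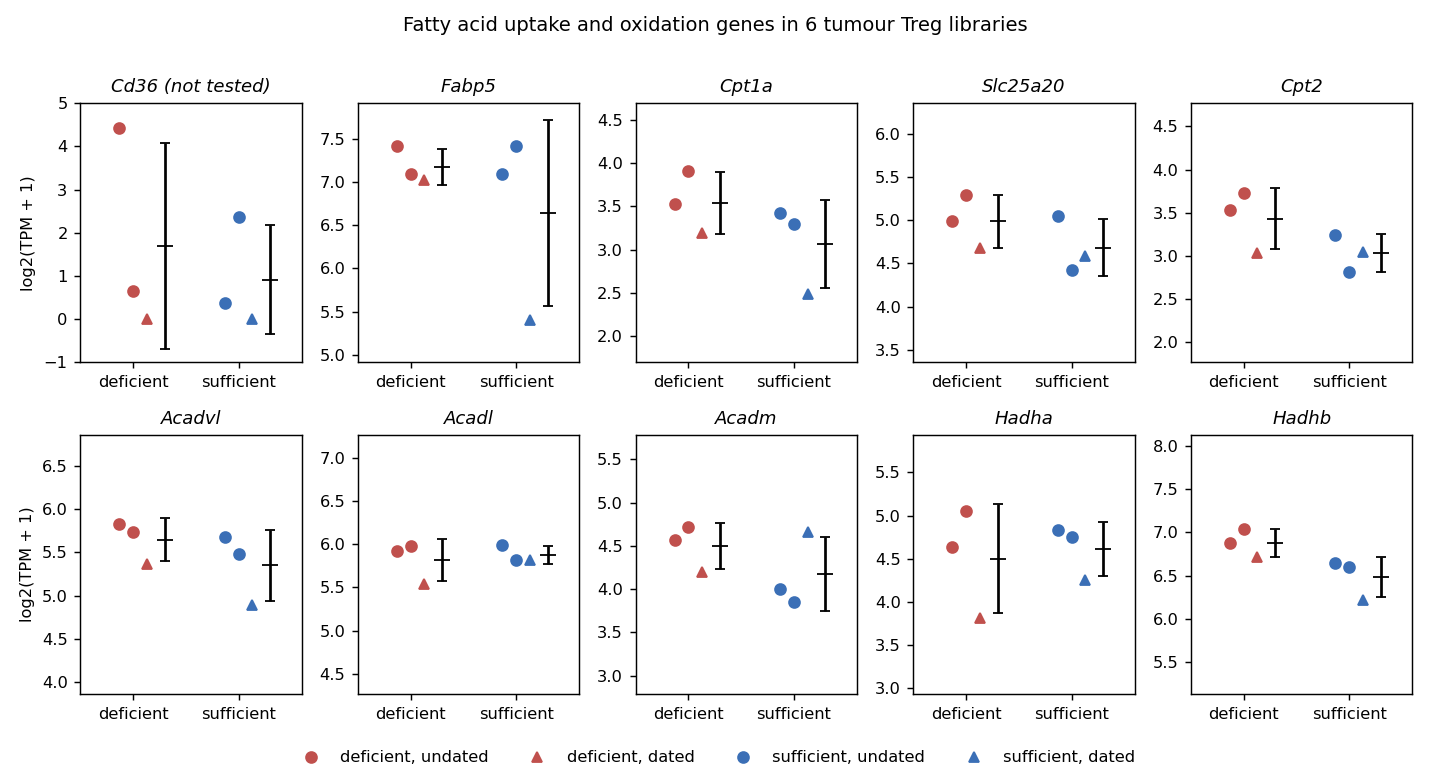
Level of each of the 10 genes in log2(TPM + 1), 1 point per library, deficient left of sufficient, with triangles for the dated pair, circles for the other 4 libraries and a black bar for the group mean and its SD (n = 3). Panels span 3 log2 units except that of Cd36, which spans 6; Hadhb is the 1 panel in which all deficient points lie above all sufficient points, and Fabp5 in the sufficient dated library lies at 5.41, apart from the other 5.

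**Figure D2:**
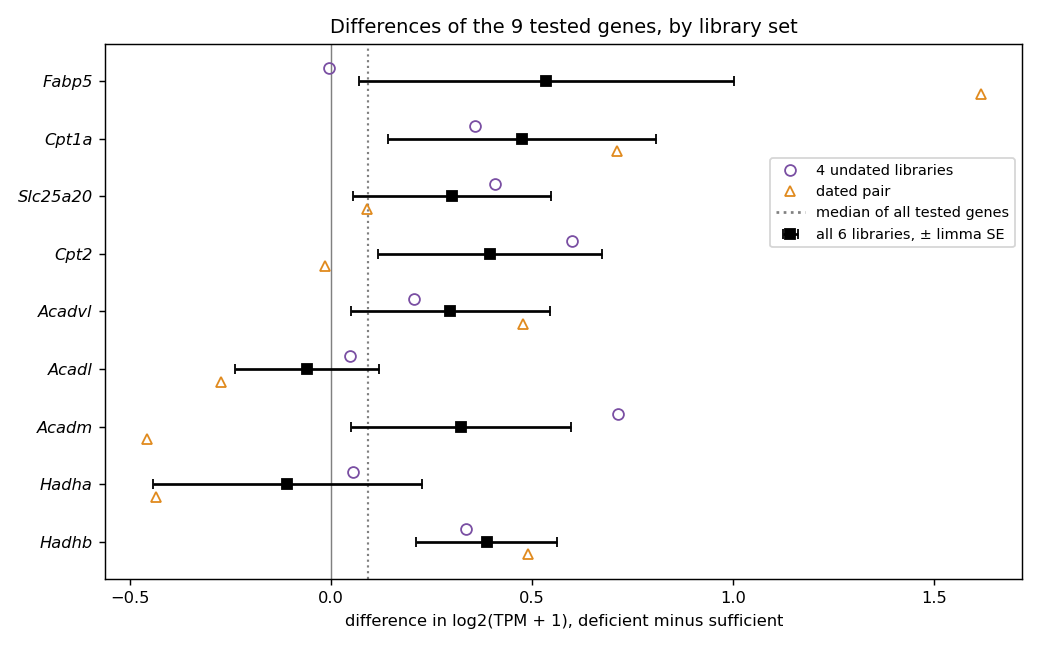
Difference in log2(TPM + 1), deficient minus sufficient, of the 9 tested genes over all 6 libraries (black squares, ± limma standard error), over the 4 undated libraries (circles) and in the dated pair (triangles, 1 library per group). Fabp5 lies at -0.0039 without the dated pair and at 1.62 within it, while Acadm lies at 0.72 and -0.46.

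Cd36, the fatty acid translocase (ENSMUSG00000002944.15, GRCm38, chr5:17781690-17888801, minus strand), was at or near 0 in most libraries and did not pass the filter on low values. On the log2(TPM + 1) scale it stood at 4.43 in deficient C1, 0.65 in deficient D and 0 in deficient dated, against 0.37 in sufficient A1, 2.37 in sufficient B1 and 0.01 in sufficient dated. The groups overlapped, and the 2 high values belonged to the 2 libraries with the most macrophage and monocyte marker RNA. Those markers summed to 1857 TPM in deficient C1, 124 TPM in deficient D and 30.3 TPM in deficient dated, against 250 TPM in sufficient A1, 1114 TPM in sufficient B1 and 35.5 TPM in sufficient dated. The defining marker Csf1r, the receptor for macrophage colony-stimulating factor, had 3.43 in deficient C1 and 1.51 in sufficient B1 on the log2 scale and at most 0.51 in the other 4 libraries. In bulk libraries fewer cells of a type and less RNA per cell cannot be told apart, nor can RNA of carried-over cells and RNA within the sorted cells, and the part of macrophage RNA in the Cd36 values was not tested. The mean difference of Cd36 was 0.78. It was -0.59 without deficient C1, 1.503 without sufficient B1 and 0.13 without both of them. With no filter on low values its adjusted p in limma was 0.857.

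**Figure D3:**
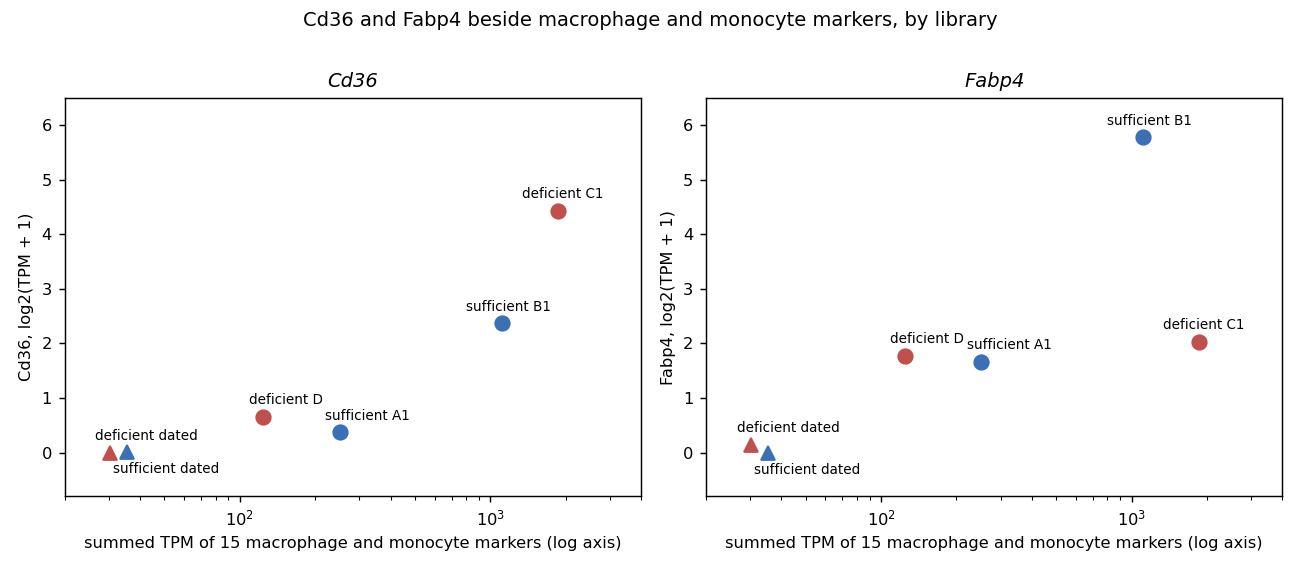
Levels of Cd36 (left) and Fabp4 (right) in log2(TPM + 1) against the summed TPM of 15 macrophage and monocyte markers on a log axis, 1 point per library, red for deficient and blue for sufficient, with triangles for dated libraries. Cd36 is highest at 4.43 in deficient C1 and next at 2.37 in sufficient B1, the 2 libraries with the highest marker sums, while Fabp4 stands at 5.78 in sufficient B1 and at 2.02 in deficient C1.

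Fabp5, the cytosolic fatty acid chaperone (ENSMUSG00000027533.10, chr3:10012548-10016607, plus strand), was the most abundant member and differed little outside 1 library. Its values were 7.42, 7.09 and 7.02 in deficient C1, D and dated, against 7.09, 7.42 and 5.41 in sufficient A1, B1 and dated. The sufficient dated library, at 41.4 TPM, lay far below the other 5, which held 129 to 170 TPM. The difference over all libraries was 0.54 ± 0.47 (SE, adjusted p = 0.689 in limma). Without the sufficient dated library it was -0.08. The undated libraries alone gave -0.0039, and the dated pair 1.62. The table also holds Fabp5l2, annotated as a processed pseudogene, which was at 0 in 5 of 6 libraries.

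The 3 genes of the carnitine shuttle had positive differences, and in each the groups overlapped. Cpt1a, the gate to mitochondrial import (ENSMUSG00000024900.5, chr19:3322334-3385733, plus strand), had 3.52, 3.91 and 3.20 in deficient C1, D and dated, against 3.42, 3.29 and 2.48 in sufficient A1, B1 and dated. The groups overlapped, with each dated library lowest in its group. Its difference was 0.48 ± 0.33 (SE, 1.39-fold, adjusted p = 0.604 in limma). The undated libraries alone gave 0.36 and the dated pair 0.71, and the value was 0.29 without deficient D and 0.18 without sufficient dated.

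Slc25a20, the carnitine and acylcarnitine translocase (ENSMUSG00000032602.6, chr9:108662088-108684641, plus strand), had 4.99, 5.29 and 4.68 in deficient C1, D and dated, against 5.05, 4.42 and 4.59 in sufficient A1, B1 and dated. Sufficient A1 lay above deficient C1 and deficient dated, so the groups overlapped. The difference was 0.30 ± 0.25 (SE, adjusted p = 0.665 in limma), or 0.15 without deficient D, 0.17 without sufficient B1, 0.46 without deficient dated and 0.48 without sufficient A1. Cpt2, the inner membrane transferase (ENSMUSG00000028607.16, chr4:107903981-107923610, minus strand), had 3.54, 3.73 and 3.04 in deficient C1, D and dated, against 3.25, 2.81 and 3.05 in sufficient A1, B1 and dated. Its difference of 0.40 ± 0.28 (SE, adjusted p = 0.605 in limma) was 0.60 in the undated libraries alone, while the dated pair differed by -0.01. Without deficient D it was 0.25 and without deficient dated 0.59.

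The acyl-CoA dehydrogenases had no common direction. Acadvl, for very long chains (ENSMUSG00000018574.14, chr11:70010183-70015411, minus strand), had 5.83, 5.74 and 5.37 in deficient C1, D and dated, against 5.68, 5.48 and 4.89 in sufficient A1, B1 and dated. The groups overlapped through the low deficient dated library, and the difference was 0.30 ± 0.25 (SE, adjusted p = 0.672 in limma). Without sufficient dated it was 0.07 and without sufficient A1 0.46. Acadvl overlaps Dvl2 on the opposite strand over 2119 bases, and without strand information their reads cannot be separated there; Dvl2 had at most 1.54 on the log2 scale.

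Acadl, for long chains (ENSMUSG00000026003.5, chr1:66830839-66863277, minus strand), had the smallest SD over the 6 libraries among the members, 0.17. It stood at 5.93, 5.98 and 5.54 in deficient C1, D and dated, against 6.00, 5.82 and 5.81 in sufficient A1, B1 and dated. The difference was -0.06 ± 0.18 (SE, adjusted p = 0.926 in limma), and it was 0.08 without the deficient dated library. Once each library was centred on its median, the deficient values lay below the sufficient ones without overlap, as they did in 9.67% of all tested genes, with a difference of -0.20 and an adjusted p of 0.717 in limma.

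Acadm, for medium chains (ENSMUSG00000062908.12, chr3:153922357-153944632, minus strand), differed in opposite directions in the 2 sets of libraries. It had 4.57, 4.72 and 4.20 in deficient C1, D and dated, against 3.998, 3.86 and 4.66 in sufficient A1, B1 and dated. Both undated deficient libraries lay above both undated sufficient ones, by 0.72 on average, while the dated pair differed by -0.46. Over all libraries the difference was 0.32 ± 0.27 (SE, adjusted p = 0.679 in limma). Without the sufficient dated library it was 0.57, without deficient D 0.21 and without sufficient B1 0.17. The ratio of Acadvl to Acadm in TPM was 2.47, 2.07 and 2.32 in deficient C1, D and dated, against 3.37, 3.24 and 1.18 in sufficient A1, B1 and dated. The sufficient dated library was thus the 1 library in which both enzymes stood at nearly the same level.

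Hadha and Hadhb encode the alpha and beta subunits of the mitochondrial trifunctional protein, which carries out the remaining steps for long chains: the alpha subunit holds the hydratase and hydroxyacyl-CoA dehydrogenase, and the beta subunit the thiolase. The genes lie head to head on chromosome 5 with 85 bases between their starts in GENCODE M21, Hadha (ENSMUSG00000025745.12) at chr5:30118304-30155162 on the minus strand and Hadhb (ENSMUSG00000059447.13) at chr5:30155248-30184593 on the plus strand. Their promoter windows, from 250 bases before to 50 bases after each RefSeq start on GRCm38.p6, are shown because the windows of the pair are largely the same DNA. The RefSeq starts that set these windows have 272 bases between them, more than in GENCODE. The 228 bases that both windows hold, chr5:30155003-30155230, are in capitals, each read 5′ to 3′ on its own gene's strand, so that 1 run is the reverse complement of the other. The Hadha window is chr5:30154931-30155230, minus strand, and the Hadhb window chr5:30155003-30155302, plus strand.
Hadha: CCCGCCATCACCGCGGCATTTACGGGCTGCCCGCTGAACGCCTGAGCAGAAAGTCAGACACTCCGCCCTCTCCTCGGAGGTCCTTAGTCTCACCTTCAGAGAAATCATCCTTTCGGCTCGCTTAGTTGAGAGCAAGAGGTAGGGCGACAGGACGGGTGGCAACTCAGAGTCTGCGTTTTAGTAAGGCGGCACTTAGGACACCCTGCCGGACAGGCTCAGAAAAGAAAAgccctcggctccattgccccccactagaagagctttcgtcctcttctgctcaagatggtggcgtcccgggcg
Hadhb: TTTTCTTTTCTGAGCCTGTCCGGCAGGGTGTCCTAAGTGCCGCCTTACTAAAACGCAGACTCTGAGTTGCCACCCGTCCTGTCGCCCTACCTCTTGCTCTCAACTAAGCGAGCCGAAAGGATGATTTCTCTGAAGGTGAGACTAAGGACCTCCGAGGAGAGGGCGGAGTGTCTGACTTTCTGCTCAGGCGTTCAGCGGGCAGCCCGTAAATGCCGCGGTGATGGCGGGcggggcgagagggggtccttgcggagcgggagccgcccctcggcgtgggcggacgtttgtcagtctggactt

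From high to low, both subunits had the order D, C1 and dated within the deficient group and A1, B1 and dated within the sufficient group. Across the groups the order of the libraries differed between the subunits. Hadhb had 6.87, 7.04 and 6.71 in deficient C1, D and dated, against 6.64, 6.60 and 6.22 in sufficient A1, B1 and dated. Each deficient library lay above each sufficient one, the narrowest gap being that between deficient dated and sufficient A1. Hadhb was the 1 tested member whose groups did not overlap, where 17.6% of all tested genes had groups that did not overlap and 10.9% were higher in each deficient library. Its difference was 0.39 ± 0.18 (SE, 1.31-fold), the smallest p among the members (unadjusted p = 0.0581 and adjusted p = 0.445 in limma). A date block gave an adjusted p of 0.147 in limma. The difference was 0.34 without the dated pair and 0.49 within it. Since the groups did not overlap, its sign could not differ between these sets. Without the sufficient dated library the difference was 0.254. After centring on library medians the groups were separated only narrowly, with the lowest deficient value at 6.66 and the highest sufficient value at 6.64. Deficient was higher without overlap, as in 7.42% of all tested genes, and the difference was 0.25.

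Hadha had 4.64, 5.06 and 3.82 in deficient C1, D and dated, against 4.83, 4.75 and 4.25 in sufficient A1, B1 and dated. The deficient libraries held both the highest and the lowest value, and the difference was -0.11 ± 0.34 (SE, adjusted p = 0.928 in limma). Without the deficient dated library it was 0.23.

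The within-library difference Hadhb minus Hadha, a quantity chosen after the values were seen, was 2.24, 1.99 and 2.89 in deficient C1, D and dated, against 1.81, 1.85 and 1.97 in sufficient A1, B1 and dated. The deficient values all lay above the sufficient ones, by 0.02 at the narrowest, and deficient dated stood apart as the highest. The mean was 2.37 ± 0.47 in deficient and 1.88 ± 0.08 in sufficient libraries (SD, n = 3 each), a difference of 0.50. The two-sided exact permutation p was 0.10, the smallest value 3 against 3 libraries allow. Groups of 3 that do not overlap always give this p, so it adds nothing to the separation. In TPM, Hadhb was 4.87, 4.06 and 7.93 times Hadha in deficient C1, D and dated, and 3.60, 3.71 and 4.08 times Hadha in sufficient A1, B1 and dated.

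**Figure D4:**
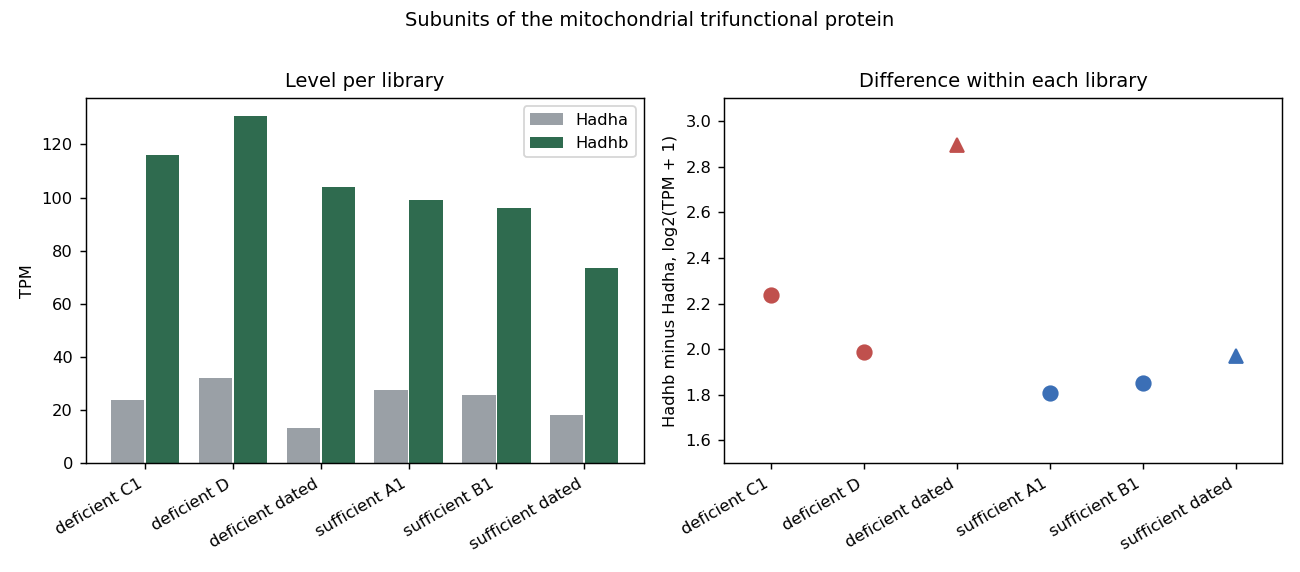
Left, TPM of Hadha (grey) and Hadhb (green) in each library; right, Hadhb minus Hadha in log2(TPM + 1) within each library, red for deficient and blue for sufficient, with triangles for dated libraries. The deficient libraries lie at 2.24, 1.99 and 2.89 and the sufficient libraries at 1.81, 1.85 and 1.97.

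Promoter windows were found for 9 of the 10 members (all but Fabp5) and searched on both strands for sites of nuclear receptors that are known to control fatty acid oxidation genes. The direct repeat bound by PPAR and RXR, AGGTCANAGGTCA, was in 0 of the 9 windows and in 0.0396% of 32851 promoter windows of the same 300 bases. The estrogen-related receptor element TCAAGGTCA was likewise in 0 of 9, and in 0.423% of all windows. The core AGGTCA, which is contained in both longer motifs, was in 4 of 9 (Acadm, Acadvl, Cd36 and Cpt1a), where 16.3% of all windows held it. The Hadha and Hadhb windows held none of the 3 motifs. A match is a description of letters and not evidence of binding, and no match speaks only of these windows.

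The order of levels was much the same in all libraries. In TPM, which corrects for length, Fabp5 averaged 130.1 ± 47.0 and Hadhb 103 ± 19.4 over the 6 libraries (SD), and Fabp5 exceeded Hadhb in 5 of them. Acadl followed at 56.8 ± 6.4 and Acadvl at 45.3 ± 9.98, with Acadl higher in 6 of 6. Slc25a20 (28.2 ± 6.7), Hadha (23.4 ± 6.9) and Acadm (19.7 ± 5.1) had overlapping ranges. Cpt1a (9.29 ± 3.1) and Cpt2 (8.65 ± 2.3) were lowest among the mitochondrial members and did not differ beyond their spread. The 8 mitochondrial members summed to 330.5, 368 and 260.2 TPM in deficient C1, D and dated, against 305, 269.7 and 235 TPM in sufficient A1, B1 and dated. Deficient D held the highest value of 6 of the 10 members, and the lowest values were held by sufficient dated for 4, sufficient B1 for 3 and deficient dated for 3.

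Other genes of the pathway were read from 6 lists with 72 genes, of which 54 were tested. These lists, too, were chosen with earlier results of these data known. None was called in limma over all genes, where 0.206% of tested genes were called. An unadjusted limma p under 0.05 was found for 8 of 54, where the share over all tested genes was 11.7%. Of the 54, 7 were higher and 2 lower in deficient libraries without overlap of the groups. The shares over all tested genes were 10.9% and 6.73%, or 17.6% in either direction. All pathway genes named below were chosen from their values. The 2 of smallest p in each list were named by their p in these same libraries. Any others were chosen after their values were seen. Shares over all tested genes therefore do not show how unusual a single named gene is.

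Most of the mitochondrial beta-oxidation list stood slightly higher in deficient libraries, with no gene past the threshold. Of 15 tested genes 14 had positive differences, with a median of 0.27, against 60.1% positive and a median of 0.09 over all tested genes. Groups did not overlap in 5 of them (Hadh, Acaa2, Acat1, Eci1 and Etfa), all higher, where 10.9% of all tested genes were higher in each deficient library. After centring on library medians 11 of 15 were positive, where the share over all tested genes was 45.3%, and 2 (Acat1 and Etfdh) were higher without overlap, as were 7.42% of all tested genes.

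Hadh, the hydroxyacyl-CoA dehydrogenase for medium and short chains, had the smallest p of the 54. It had 5.63, 5.82 and 5.96 in deficient C1, D and dated, against 5.01, 5.18 and 5.39 in sufficient A1, B1 and dated. The groups were separate, and the difference was 0.61 ± 0.18 (SE, 1.53-fold, adjusted p = 0.251 in limma and 0.0795 with the date mark as a block). Without the dated pair it was 0.63, and within it 0.57. After centring on library medians the Hadh groups overlapped, with a difference of 0.48 and an adjusted p of 0.543 in limma. Acat1, the mitochondrial acetoacetyl-CoA thiolase, had 5.04, 4.59 and 4.43 in deficient C1, D and dated, against 4.19, 4.13 and 4.12 in sufficient A1, B1 and dated. Its difference was 0.54 ± 0.22 (SE, adjusted p = 0.395 in limma). The other 3 had smaller differences: 0.38 for the enoyl-CoA isomerase Eci1, 0.29 for the thiolase Acaa2 and 0.27 for Etfa, which passes electrons from the dehydrogenases to the respiratory chain.

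Of the tested uptake and activation genes 3 of 9 were positive, with a median of -0.04. After median centring 1 of 9 was positive, with a median of -0.18, where the share over all tested genes was 45.3%. Acsl4, an acyl-CoA synthetase that prefers arachidonic acid, had 3.44, 3.27 and 3.01 in deficient C1, D and dated, against 4.15, 3.97 and 3.54 in sufficient A1, B1 and dated. Each deficient value lay below each sufficient one, as it did in 6.73% of all tested genes, at a difference of -0.64 ± 0.26 (SE, adjusted p = 0.390 in limma). Acsl3 had a difference of 0.68 ± 0.71 that was -0.13 without deficient C1. Fabp4, a fatty acid binding protein of adipocytes and macrophages, stood at 2.02, 1.77 and 0.14 in deficient C1, D and dated, against 1.66, 5.78 and 0 in sufficient A1, B1 and dated. Its difference of -1.17 was 0.48 without sufficient B1. Adipoq, which marks adipocytes, had at most 0.03 in any library. Macrophage and monocyte markers summed to 1114 TPM in sufficient B1, but to more, 1857 TPM, in deficient C1, where Fabp4 stood at 2.02. The part of RNA from other cells in the Fabp4 values was not tested.

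In the carnitine system 2 of 5 tested genes were positive, with a median of -0.10 that was -0.23 after median centring. Crat, the mitochondrial carnitine acetyltransferase, had a difference of 0.44 ± 0.32 and Mlycd, which degrades the CPT1 inhibitor malonyl-CoA, one of -0.61 ± 0.49 (SE, adjusted p = 0.621 and 0.658 in limma). Crat stood at 0.26 without deficient D and 0.70 without deficient dated, while leaving out deficient C1, D or dated in turn put Mlycd at -0.27, -0.36 and -1.18. Mlycd had 3.25 in deficient dated, against 1.43 and 1.61 in deficient C1 and D, and its difference was -1.07 without the dated pair but 0.32 within it. The other CPT1 genes were near 0, with Cpt1b at most 0.51 and Cpt1c at most 0.40 on the log2(TPM + 1) scale, so Cpt1a was the main CPT1 transcript in each library.

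Peroxisomal genes were positive in 7 of 8 tested, with a median of 0.14 that was 0.0064 after median centring. Scp2, a thiolase and sterol carrier, had a difference of 0.14 ± 0.17 (SE, adjusted p = 0.795 in limma). It was 0.0005 after median centring and lay between 0.02 without deficient dated and 0.25 without deficient C1 when 1 library was left out, being 0.083 without sufficient B1 and 0.23 without sufficient dated.

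Genes of lipolysis and lipid droplets had differences in both directions, with 8 of 9 tested positive and a median of 0.32. After median centring 6 of 9 were positive, with a median of 0.18. Hilpda, a hypoxia-induced inhibitor of lipolysis and the most abundant gene of the list, had 9.68, 9.97 and 10.11 in deficient C1, D and dated, against 11.09, 10.897 and 10.004 in sufficient A1, B1 and dated. The undated groups were separate and the dated pair was nearly level. The difference was -0.74 ± 0.28 (SE, adjusted p = 0.351 in limma). Without both dated libraries it was -1.16 with an adjusted p of 0.0179 in limma. That fit called 215 of 12155 tested genes and had 2 residual degrees of freedom. Lipe, hormone-sensitive lipase, had 1.996, 2.64 and 1.69 in deficient C1, D and dated, against 1.54, 1.31 and 0.76 in sufficient A1, B1 and dated. Its difference was 0.91 ± 0.36 (SE, adjusted p = 0.389 in limma), without overlap and with deficient higher as in 10.9% of all tested genes. Dgat2, which makes triacylglycerol, had 4.74, 4.69 and 3.16 in deficient C1, D and dated, against 3.15, 3.62 and 2.08 in sufficient A1, B1 and dated. Its difference of 1.25 ± 0.53 had an adjusted p of 0.416 in limma and 0.0381 with the date mark as a block, a fit in which 1.97% of all tested genes were called. Without sufficient dated the difference was 0.81. Plin2, a lipid droplet coat protein, had 7.42, 6.56 and 4.86 in deficient C1, D and dated, against 5.92, 5.89 and 5.24 in sufficient A1, B1 and dated. Its difference of 0.60 was 0.03 without deficient C1, 1.31 without deficient dated and 0.38 without sufficient dated. Within the deficient group its order followed the macrophage marker sums. It did not in the sufficient group, where B1 had the highest sum and A1 the highest Plin2 level, and the part of macrophage RNA in its value was not tested.

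**Figure D5:**
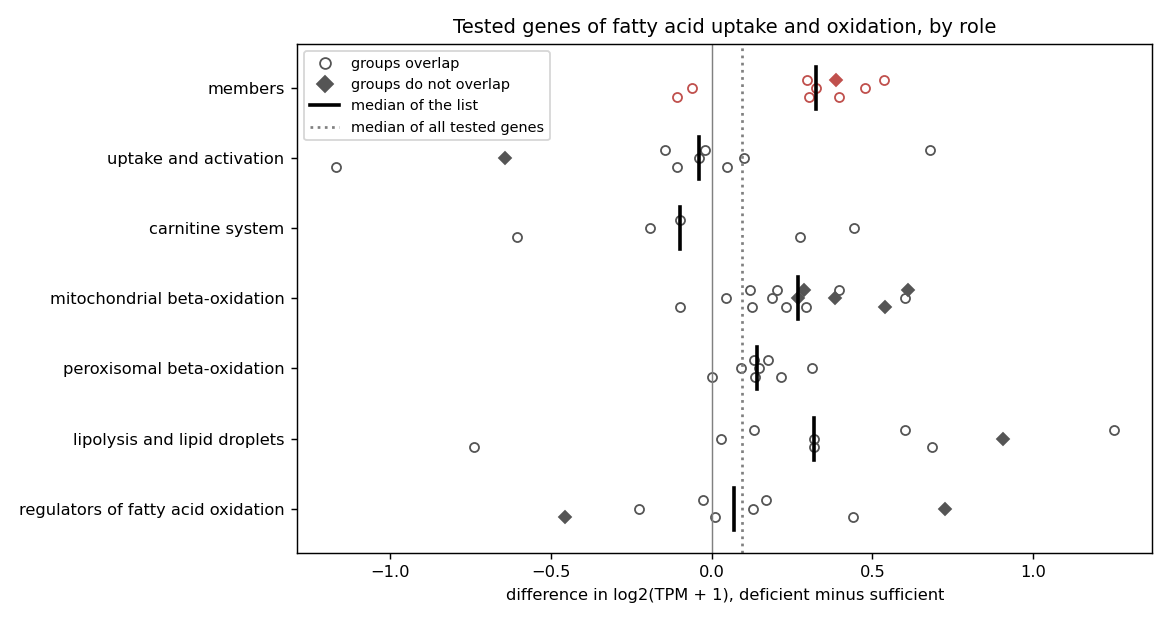
Difference in log2(TPM + 1), deficient minus sufficient, of each tested gene in the group of 9 members (red) and in 6 lists of other pathway genes (grey), with filled diamonds where the groups did not overlap, a black bar at the list median and a dotted line at the median of all tested genes, 0.09. In the mitochondrial beta-oxidation list 14 of 15 genes lie above 0, while the uptake and activation list has 3 of 9 above 0.

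Among regulators, 5 of 8 tested genes were positive, with a median of 0.07. After median centring 3 of 8 were positive, with a median of -0.07. Prkaa1, the catalytic alpha 1 subunit of AMP-activated protein kinase, had 3.61, 3.54 and 2.90 in deficient C1, D and dated, against 2.74, 2.48 and 2.66 in sufficient A1, B1 and dated. The groups did not overlap, with deficient higher, as in 1 of the 8 tested genes of the list and 10.9% of all tested genes. Since Prkaa1 was named for its small p, that share does not show how unusual it is. The difference was 0.72 ± 0.28 (SE, adjusted p = 0.3796 in limma), at 0.96 without the dated pair and 0.25 within it. Rxra, the partner receptor of the PPARs, had 1.12, 1.06 and 1.17 in deficient C1, D and dated, against 1.70, 1.58 and 1.43 in sufficient A1, B1 and dated. Its groups did not overlap, with deficient lower as in 6.73% of all tested genes, at a difference of -0.45 ± 0.26 (SE, adjusted p = 0.540 in limma). Ppara and the coactivator Ppargc1a were at or near 0, with at most 0.03 and 0.01. Ppard had at most 1.53, whereas Pparg had 3.55, 2.86 and 2.96 in deficient C1, D and dated, against 3.31, 3.03 and 2.65 in sufficient A1, B1 and dated.

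The genes whose pattern over the 6 libraries was most like that of the 3 members of smallest p were found among 9887 tested protein-coding genes. For Hadhb they included Mgmt and Ogdh, with Pearson's r of 0.998 and 0.997. For Cpt1a they included Ndel1 and Grap2 (r of 0.995 and 0.994), and for Cpt2 they were Fam76b, Exo1 and Uqcc1 (0.994, 0.993 and 0.990). With 6 points such values are common: 134, 162 and 46 genes had an r of at least 0.95 with Hadhb, Cpt1a and Cpt2, and the r values are given as a description of these libraries, with no p.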

How the data were processed

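Treg cells were sorted from tumours into lysis buffer in plates, Nextera XT libraries were made from them and 75 bp paired reads were taken, per the labels' protocols. The submitters' processing notes name STAR, RSEM, limma and the builds GRCm38 and mm10, with no versions of the tools. The values deposited by the authors are log2 values, and raised to linear values minus 1 they summed to between 999999 and 1000001 in each library, so they are log2(TPM + 1). TPM keeps no read counts, so no counting interval was computed. All 55450 identifiers matched GENCODE M21 (GRCm38), which gave coordinates and restored 27 symbols that had been turned into dates.

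Genes with a log2 value of at least 1 in at least 3 of 6 libraries (12155) were tested with limma (lmFit, eBayes with trend, no covariate), deficient minus sufficient, and adjusted by Benjamini-Hochberg over all of them. Differences are on the log2(TPM + 1) scale and understate changes of low genes. Column names gave the group of a library and no replicate number. Alternatives covered the filter, pseudocounts of 0.1 and 5, scaling, the variance model, the date mark as a block and leaving out libraries. Named were the 10 members, the 2 genes of smallest p and any called gene of each list, and 3 genes most like each of the 3 members of smallest p; a few of these genes are not reported here. The members and lists were chosen with earlier results of these data known. On simulated data of 12155 genes, 15.5% of genes changed by 1 on the log2 scale were called, 66.2% at 2 and 82.5% at 3. Fits were run in limma 3.58.1 under R 4.3.3, tables and the exact test in pandas 2.3.3 and scipy 1.17.1, and plots in matplotlib 3.10.9 under Python 3.11.15.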

Additional observations from a re-analysis of the deposited data

How the results depend on the processing

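The 9 tested members stayed uncalled in all 17 alternatives, with a smallest adjusted p of 0.147 in limma, for Hadhb with the date mark as a block. Their median difference ranged from 0.18, without sufficient dated, to 0.47, against 0.32. The count of genes called over the whole table was far less stable. Against 25 it was 1 with no filter on low values, 38 with quantile normalization, 4 without the mean-variance trend, 240 with the date mark as a block, 215 without both dated libraries and 0 without sufficient B1 and deficient C1, an alternative chosen after seeing the data. It ranged from 0 to 121 when 1 library was left out. Of the other pathway genes 1 was called with the date mark as a block (Dgat2) and 1 without both dated libraries (Hilpda), against 0. Havcr2 passed in these 2 fits (adjusted p of 0.0148 and 0.0328). Signs turned for differences near 0 or resting on 1 library: Hadha was 0.0025 without sufficient A1, 0.055 without both dated libraries and between -0.38 and 0.23 when 1 library was left out, against -0.11. Acadl was 0.047 without both dated libraries and between -0.14 and 0.078, against -0.06. Fabp5 was -0.0039 without both dated libraries and between -0.080 and 0.92, against 0.54. Acsl3 lay between -0.13 and 1.45, against 0.68. Fabp4 was 0.13 without sufficient B1 and deficient C1 and between -2.41 and 0.48 when 1 library was left out, against -1.17. The cause was not tested. No paired analysis was possible because the column names carry no replicate numbers. The date mark, shared by 1 library of each group, was the 1 tie between libraries that could be fitted. A date block does not remove the difference in Y-linked RNA within the dated pair. Fits with 2 libraries per group have 2 residual degrees of freedom. On simulated data 15.5% of genes changed by 1 on the log2 scale were called and smaller changes were not simulated, so the missing calls do not show that the members' smaller differences are absent.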
